A study of Mus musculus with 88 samples.

Results

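The genes described here encode the neuregulins Nrg1, Nrg2 and Nrg3, the ErbB receptors Erbb2, Erbb3 and Erbb4, and 4 components of the Nogo system: Rtn4, which encodes Nogo, Omg, Rtn4r and Lingo1. The 10 genes were picked by symbol, with each Ensembl identifier of a region's table matched to the mouse annotation on GRCm38 (the rule itself uses symbols and no threshold on a value). All 10 were found among the 18946 genes of the medial prefrontal cortex (mPFC), the 48795 genes of the bed nucleus of the stria terminalis (BNST) and the 19559 genes of the ventral hippocampus (vHPC). In the BNST, 17515 genes, the 10 among them, had a CPM (counts per 1000000 counts of the library) of 1 or more in 6 or more libraries and were tested.

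RNA-seq had been done on 88 libraries from male mice of 2 inbred strains, C57BL/6Crl (B6) and DBA/2Crl (D2), aged 8 weeks at dissection. Mice went through chronic social defeat stress (CSDS), in which an aggressive CD1 male attacked the mouse daily for 10 d, and were classed as resilient or susceptible by their social interaction ratio against controls of their own strain. Control mice were housed beside another control without physical contact, and tissue was taken 6 to 8 d after the last session. For the mPFC, each B6 phenotype had 6 libraries, and D2 had 8 susceptible and 6 control libraries. Every BNST group had 5 libraries apart from resilient D2, which had 3. For the vHPC, B6 had 3 susceptible, 8 resilient and 6 control libraries, and D2 had 5 susceptible and 6 control libraries. Resilient D2 mice were measured in the BNST alone. Each library came from 1 mouse and from whole tissue, so fewer cells of a type and less RNA per cell cannot be told apart. Stress was thus compared within a strain, and strain among control mice.

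Neuregulins are growth factors with an EGF-like domain that bind ErbB3 or ErbB4, and ErbB2 has no neuregulin ligand of its own and signals as the partner of those receptors. In the brain ErbB4 is known from GABAergic interneurons, while ErbB3 is carried by cells of the oligodendrocyte lineage. Nogo and the oligodendrocyte myelin glycoprotein (Omg) limit the growth of axons through the Nogo receptor, encoded by Rtn4r, which has no intracellular part and signals with co-receptors such as Lingo1.

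The 250 bases before the transcription start are shown for a ligand and for a Nogo receptor whose level differed between groups, Nrg3 and Rtn4r, and for Erbb4, whose level hardly varied in the mPFC and vHPC. They come from RefSeq on GRCm38.p6 and are written 5′ to 3′ on the strand of the gene, with GGGCGG on either strand in capitals.
Nrg3, chr14:39473089-39473338, minus strand: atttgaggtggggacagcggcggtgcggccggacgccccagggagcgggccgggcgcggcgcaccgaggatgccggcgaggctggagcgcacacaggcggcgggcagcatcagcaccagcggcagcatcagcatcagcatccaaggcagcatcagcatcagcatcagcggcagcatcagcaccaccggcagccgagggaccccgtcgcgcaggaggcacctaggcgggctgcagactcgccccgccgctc
Rtn4r, chr16:18127392-18127641, plus strand: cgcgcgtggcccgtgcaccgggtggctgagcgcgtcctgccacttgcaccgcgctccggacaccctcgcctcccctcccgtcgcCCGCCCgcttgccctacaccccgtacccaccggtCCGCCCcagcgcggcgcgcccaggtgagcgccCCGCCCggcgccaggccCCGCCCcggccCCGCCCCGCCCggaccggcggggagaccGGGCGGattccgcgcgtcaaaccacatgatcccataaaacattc
Erbb4, chr1:69108060-69108309, minus strand: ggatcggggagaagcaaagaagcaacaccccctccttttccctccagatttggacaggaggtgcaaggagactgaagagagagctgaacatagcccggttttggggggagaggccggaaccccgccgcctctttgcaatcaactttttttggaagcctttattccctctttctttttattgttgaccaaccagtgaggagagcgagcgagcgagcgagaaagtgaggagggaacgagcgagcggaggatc
The Rtn4r window held 7 GGGCGG matches, 2 of which overlap by a single base, and the Nrg3 and Erbb4 windows held 0. Of all 32851 windows of this length, 32.7% held at least 1. GC content was 77.2% before Rtn4r, 72.4% before Nrg3 and 54% before Erbb4, beside a median of 52.4% over all windows, and CG dinucleotides numbered 38, 27 and 12 beside a median of 6. A match describes the letters of the window and is not evidence of a bound site. Nrg1, Nrg2, Erbb3 and Omg had no window in the table used.

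On GRCm38, Nrg1 (ENSMUSG00000062991) lies at chr8:31814551-32884029 on the minus strand and Nrg2 (ENSMUSG00000060275) at chr18:36017652-36197380 on the minus strand. Nrg3 (ENSMUSG00000041014) spans chr14:38368952-39473088 on the minus strand. The receptors Erbb2 (ENSMUSG00000062312, chr11:98412470-98437716, plus strand), Erbb3 (ENSMUSG00000018166, chr10:128567523-128589652, minus strand) and Erbb4 (ENSMUSG00000062209, chr1:68032186-69108059, minus strand) are on separate chromosomes. Rtn4 (ENSMUSG00000020458, chr11:29692947-29744331, plus strand) shares 1284 exonic bases, 18.4% of its exon length, with Eml6 on the opposite strand. Omg (ENSMUSG00000049612, chr11:79500982-79504084, minus strand) lies within an intron of Nf1, which runs on the opposite strand. Rtn4r (ENSMUSG00000043811) is at chr16:18127642-18152408 on the plus strand, and Lingo1 (ENSMUSG00000049556) at chr9:56618475-56796468 on the minus strand. Nrg1 shares 482 exonic bases with Gm26578. Whether the counting used strand is not given in the sources used here, so reads of Rtn4 and Eml6 in the shared bases cannot be told apart.

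To place the genes beside each other, CPM was divided by exon length in kb and put on the log2 scale, giving log2 CPM per kb, within each region. In B6 controls Rtn4 stood highest in every region, at 6.83 ± 0.07 in the mPFC (SD, n = 6), 5.83 ± 0.07 in the vHPC (n = 6) and 5.53 ± 0.17 in the BNST (n = 5). Lingo1 came next in the vHPC, at 5.01, and in the mPFC, at 5.4, where its libraries overlapped those of Omg at 5.33. In the BNST the second place went to Omg at 5.42, and its libraries overlapped those of Rtn4. Erbb4 was the most abundant receptor in every region, at 4.37 (mPFC), 3.38 (BNST) and 4.23 (vHPC), and Erbb2 was the lowest of the 10, at -0.92, -1.03 and -0.49 in the same order. Nrg3 was the most abundant neuregulin, at 3.58, 3.08 and 3.42 log2 CPM per kb. The order of the other 2 ligands turned between regions, since Nrg1 stood at 1.73 and Nrg2 at 1.38 in the mPFC, while in the vHPC Nrg1 stood at 0.64 and Nrg2 at 1.51. This order depends on the length used, since per kb of the longest transcript Nrg1 was above Nrg2 in every region, at 1.57 and 1.55 in the vHPC. In the BNST the libraries of Nrg2 (2.51), Nrg1 (2.27), Rtn4r (1.87) and Erbb3 (1.78) overlapped from neighbour to neighbour. Regions were prepared with different kits and normalized separately, so these levels were not tested between regions.

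**Figure D1:**
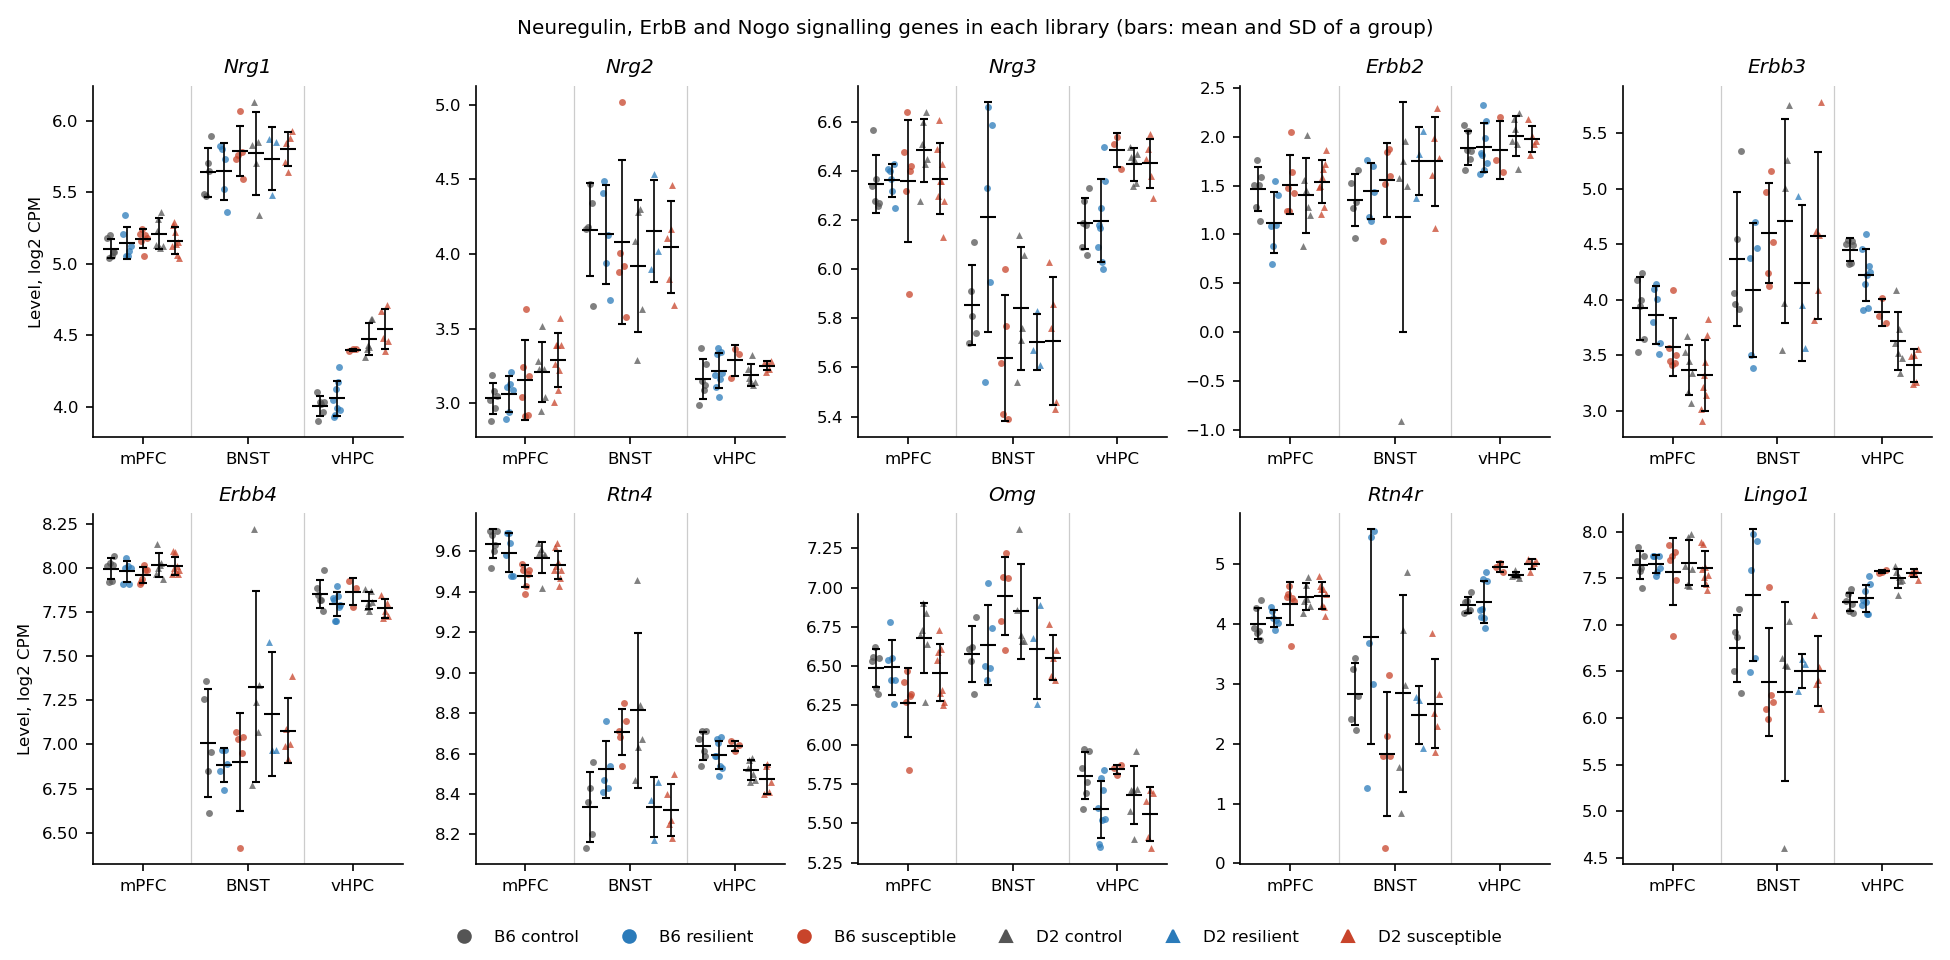
Log2 CPM of each gene (y axis, 1 panel per gene with its own scale) in each library, grouped by region, strain and CSDS phenotype, with the mean and SD of each group as bars. In the vHPC the 3 susceptible B6 mice sit at 4.39 or above for Nrg1, above all control B6 mice at 3.90 to 4.10, and the BNST groups are the most spread.

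Total counts are deposited for the BNST alone, where libraries held 11825757 to 25793910 counts. The 10 genes there drew from a median of 43 counts per library for Erbb2 and 109.5 for Rtn4r to 5422 for Rtn4. Of the region markers, 5 of 6 for prefrontal cortex, 4 of 7 for the BNST and 6 of 8 for hippocampus had their highest median in the labelled region, across tables normalized separately. The inhibitory marker Slc32a1 was highest in the BNST (median log2 CPM 7.67), while the BNST markers Esr1 (1.69, against 3.18 in the mPFC) and Crh (1.52 against 3.24) were not, and the hippocampal marker Wfs1 was highest in the BNST (7.48 against 5.55 in the vHPC). The excitatory marker Slc17a7 had a median of 3.03 in the BNST and reached 9.0 in its highest library, above the highest mPFC library at 8.04. A few libraries stood apart. In the BNST, 1 gene took 14.8% of the counts of susceptible B6 replicate 3 and 14.3% of control D2 replicate 2. In the mPFC, susceptible B6 replicate 4 stood away from its group for several genes. In the vHPC, 0 of the 9 library preparation sets with B6 mice held both control and defeated B6 mice, so the set and the stress cannot be told apart in B6. Of the 6 sets with D2 mice, 1 held both. Within the deposited vHPC values the authors had already adjusted for these sets.

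Stress differences were clearest in the vHPC of susceptible B6 mice. Of the 10 genes, 4 rose (Nrg1, Nrg3, Rtn4r and Lingo1) and 1 fell (Erbb3) against B6 controls by limma, while 40.6% of all genes tested were called in that comparison. The share of the 10 that passed is thus near the share of all genes. The median log2 fold change of the 10 was 0.08, beside -0.01 over all genes.

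Nrg1, a ligand of ErbB3 and ErbB4, measured 4.39, 4.4 and 4.4 log2 CPM in the 3 susceptible B6 mice, against 3.90 to 4.10 (median 4.03) in 6 controls. The groups did not overlap, and the log2 difference was 0.39 (SE 0.08, adjusted p = 4.4e-04), or 1.31-fold. Nrg3, the neuregulin with the highest level, measured 6.51, 6.54 and 6.41 against 6.06 to 6.33 (median 6.18) in controls. All 3 susceptible mice lay above every control, with a log2 difference of 0.30 (SE 0.08, adjusted p = 0.0065). Nrg2 did not pass the test, with 3.17, 3.36 and 3.33 log2 CPM against 2.99 to 3.37 in controls, and the groups overlapped.

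Among the receptors, Erbb3 measured 3.85, 4.02 and 3.79 log2 CPM in susceptible B6 mice against 4.32 to 4.54 (median 4.49) in controls. Every susceptible mouse lay under every control, and the level fell by 0.56 on the log2 scale (SE 0.14, adjusted p = 0.0021). Erbb4 differed by 0.01 (SE 0.05) and Erbb2 by -0.02 (SE 0.15), and neither passed.

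The Nogo receptor gene Rtn4r measured 4.95, 5.02 and 4.86 log2 CPM in susceptible B6 mice, against 4.2 to 4.52 (median 4.29) among the controls. The groups lay apart, and the log2 difference of 0.63 (SE 0.14, adjusted p = 0.0014), or 1.55-fold, was the largest rise among the 10. Its co-receptor gene Lingo1 measured 7.56, 7.57 and 7.59 against 7.13 to 7.38 (median 7.24) in controls, again without overlap, with a log2 difference of 0.33 (SE 0.08, adjusted p = 0.0015). The ligand genes were not called: Rtn4 differed by 0.00 (SE 0.05) and Omg by 0.04 (SE 0.12).

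Library set was confounded with stress in this comparison. With library set as a covariate in the fit, 0 of the 5 genes and 202 of all genes passed. The differences were 0.66 for Nrg1 (SE 0.23, adjusted p = 0.233), 0.51 for Nrg3 (SE 0.25, adjusted p = 0.412), 0.54 for Rtn4r (SE 0.43, adjusted p = 0.608), 0.35 for Lingo1 (SE 0.23, adjusted p = 0.528) and -0.92 for Erbb3 (SE 0.41, adjusted p = 0.373). All 5 kept their direction, but that fit links control and susceptible B6 mice only through sets shared with D2 mice. With sequencing set 1 alone, a fit added after the data had been seen, all 5 passed, as did 5850 of all genes. That set does not hold all the susceptible B6 mice. Neither fit separates library set from stress, since no library set held both control and defeated B6 mice.

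Markers of other cell types and tissues were read in the same comparison, where 40.6% of all genes were called. Their part in the differences was not tested. The summed ranges of the hippocampal markers, and of the choroid plexus and ependymal markers, overlapped between the groups. Of 12 mature oligodendrocyte markers, 0 rose and 11 fell, with a summed level of 2107 to 2406 CPM in susceptible B6 mice and 3625 to 4082 in controls. All 6 markers of prefrontal cortex rose (summed 882 to 916 CPM against 711 to 752), and 2 of 8 hippocampal markers fell (992 to 1171 against 1002 to 1130). Of 6 general neuron markers 4 rose and 1 fell (3320 to 3528 against 2900 to 3265), of 7 interneuron markers 3 rose (547 to 585 against 467 to 513), and of 6 excitatory neuron markers 3 rose (959 to 993 against 820 to 868). Among choroid plexus and ependymal markers 3 of 7 fell (32.5 to 91.0 CPM summed against 50.9 to 2120), and among endothelial markers 4 of 6 fell (237 to 264 against 301 to 333). Of 6 microglia markers 4 fell (214 to 223 against 250.03 to 268), and of 6 astrocyte markers 3 fell and 1 rose (1740 to 1830 against 2024 to 2181).

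Resilient B6 mice were measured against the same controls. None of the 10 genes passed by limma, 10.84% of all genes did, and 2 of the 10 had an unadjusted p under 0.05, as did 24.2% of all genes. These were Omg, at 5.35 to 5.84 (median 5.57) log2 CPM in 8 resilient mice and 5.59 to 5.97 in controls (log2 difference -0.22, SE 0.09), and Erbb3 (-0.22, SE 0.10). For Erbb3 the resilient mice, at 3.91 to 4.59, had a median of 4.24, between those of the other groups. Their range overlapped both the controls and the susceptible mice, at 3.79 to 4.02.

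Susceptible and resilient B6 mice were then compared directly, and 4 of the 10 genes rose with susceptibility, Nrg1, Nrg3, Rtn4r and Lingo1, while 27.6% of all genes were called. Nrg1 measured 3.93 to 4.28 (median 4.02) in resilient mice, under all 3 susceptible mice, with a log2 difference of 0.34 (SE 0.07, adjusted p = 0.0046). Lingo1, at 7.11 to 7.52 (median 7.25) in resilient mice, also lay apart (0.29, SE 0.07, adjusted p = 0.0087). Nrg3 (0.29, SE 0.08, adjusted p = 0.0126) and Rtn4r (0.58, SE 0.14, adjusted p = 0.0069) overlapped in range, since resilient replicate 7 read 6.5 for Nrg3 and 4.87 for Rtn4r, above the lowest susceptible values of 6.41 and 4.86. Erbb3 (-0.34, adjusted p = 0.0532) and Omg (0.26, adjusted p = 0.0809) were not called. With library set as a covariate 0 of the 4 passed (adjusted p of 0.129 to 0.15), with log2 differences of 0.33 for Nrg1, 0.33 for Nrg3, 0.61 for Rtn4r and 0.36 for Lingo1, and that fit called 0 of all genes. Sequencing set 1 alone, which holds 2 susceptible and 1 resilient B6 mice, gave 0.28 for Nrg1, 0.21 for Nrg3, 0.16 for Rtn4r and 0.33 for Lingo1, and called 0 of the 4 and 1 of all genes. When only the groups compared entered the fit, Nrg1 alone passed. Without susceptible B6 replicate 2 the difference of Nrg3 was 0.26 and its adjusted p 0.077. Erbb3 passed without resilient replicate 2 or 6 (adjusted p of 0.0337 and 0.0384), and Omg without resilient replicate 7 (0.0368). Erbb3 also passed with a filter on mean log2 CPM (adjusted p = 0.0442), and Omg when the prefix of the mouse ID entered the fit (0.29, adjusted p = 0.0481).

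Susceptible D2 mice were measured against their own controls. None of the 10 genes was called by limma, 0 had an unadjusted p under 0.05, and of all genes 4.28% were called and 17.6% had an unadjusted p under 0.05. Nrg1 measured 4.67, 4.48, 4.39, 4.71 and 4.46 log2 CPM in the 5 susceptible D2 mice and 4.35 to 4.61 in controls, a log2 difference of 0.07 (SE 0.07). Rtn4r differed by 0.18 (SE 0.12), Lingo1 by 0.06 (SE 0.07), Nrg3 by 0.00 (SE 0.07) and Erbb3 by -0.22 (SE 0.12, adjusted p = 0.332).

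The test of the strain difference itself, the interaction of strain and stress in susceptible mice, called 0 of the 10 genes by limma, beside 0.782% of all genes, and 4 had an unadjusted p under 0.05, as did 18.4% of all genes. These 4 were Nrg1 (-0.31, SE 0.10, adjusted p = 0.141), Nrg3 (-0.30, SE 0.11, adjusted p = 0.187), Lingo1 (-0.27, SE 0.10, adjusted p = 0.183) and Rtn4r (-0.45, SE 0.19, adjusted p = 0.219). The estimates were negative because D2 mice moved less than B6 mice. The calls changed with the fit: 2 genes passed when only the groups compared entered it (Nrg3 -0.30, adjusted p = 0.0472, and Rtn4r -0.45, adjusted p = 0.0098). Nrg1 passed after quantile normalization (-0.36, adjusted p = 0.0499). These fits called 1158 and 434 of all genes, against 153 in the main fit.

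**Figure D2:**
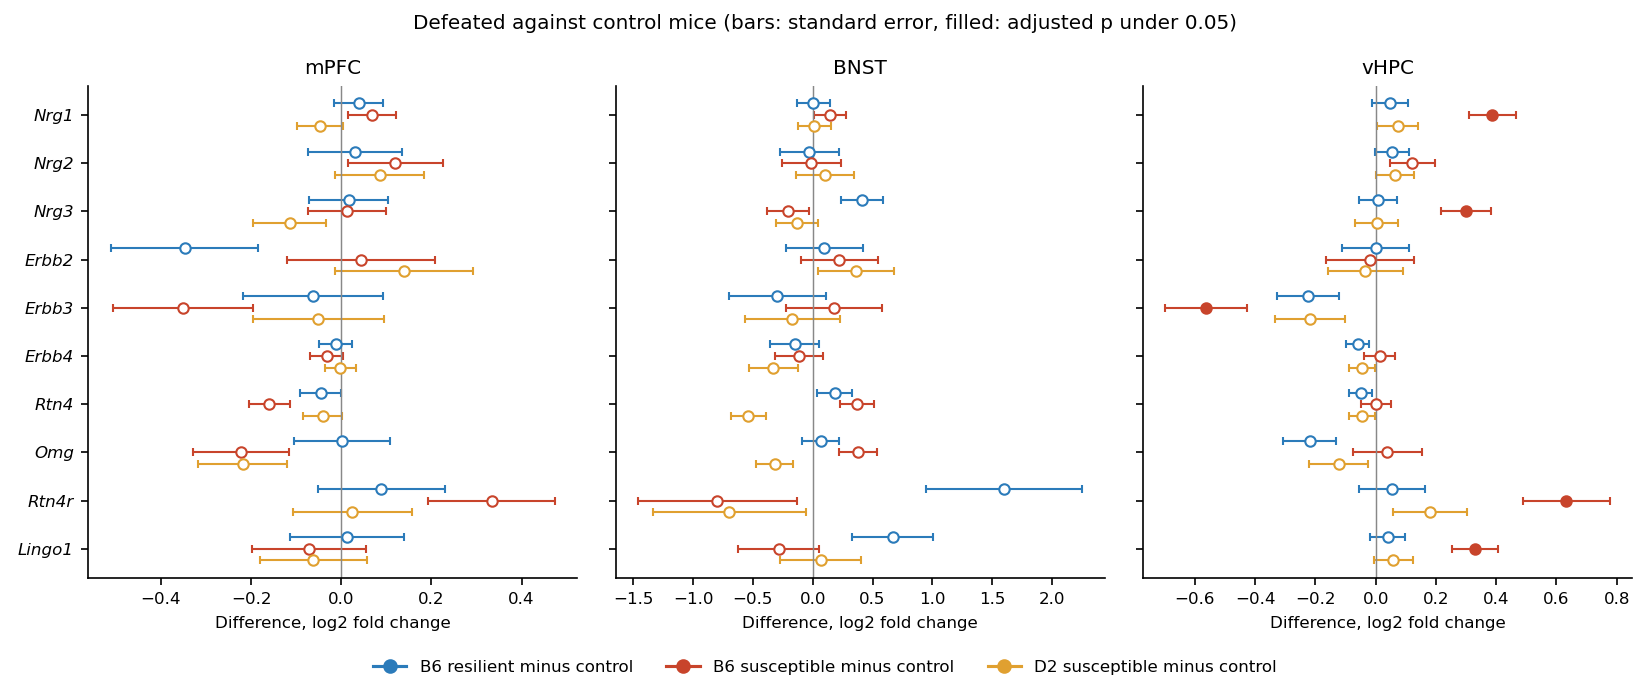
Log2 fold changes against controls of the same strain (x axis, bars show the SE) for each gene (y axis) in the 3 regions, with the 3 comparisons in separate colours and filled points where the adjusted p was under 0.05. Filled points occur in the vHPC alone, for Nrg1, Nrg3, Erbb3, Rtn4r and Lingo1 in susceptible B6 mice. The x axes differ between panels.

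Between control mice of the strains in the vHPC, 4 of the 10 genes were higher and 2 lower in D2 than in B6 by limma, beside 59.3% of all genes called. This comparison shares the B6 controls with the stress comparisons above. Nrg1 measured 4.35 to 4.61 (median 4.43) log2 CPM in 6 D2 controls and 3.90 to 4.10 in 6 B6 controls, so that the strains lay apart with a log2 difference of 0.46 (SE 0.06, adjusted p = 8.59e-07). Erbb3 measured 3.34 to 4.09 (median 3.57) in D2 controls against 4.32 to 4.54 in B6 controls, also apart, and was lower by a log2 difference of -0.82 (SE 0.11, adjusted p = 6.58e-07).

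Rtn4r stood at 4.77 to 4.90 (median 4.81) in D2 controls, above all B6 controls, with a log2 difference of 0.51 (SE 0.12, adjusted p = 6.9e-04). Nrg3 (6.34 to 6.5) was also above every B6 control, by 0.24 (SE 0.07, adjusted p = 0.0042). Lingo1 (7.32 to 7.63) was higher by 0.25 (SE 0.06, adjusted p = 0.0011) and Rtn4 (8.46 to 8.58) lower by a log2 difference of -0.12 (SE 0.04, adjusted p = 0.0122), both with overlapping ranges. Nrg2, Erbb2, Erbb4 and Omg did not pass. With library set as a covariate 0 of the 6 passed, and 1643 of all genes did. In that fit the log2 differences were 0.72 (SE 0.23) for Nrg1, -1.18 (SE 0.41) for Erbb3, 0.44 (SE 0.25) for Nrg3, 0.25 (SE 0.23) for Lingo1, 0.32 (SE 0.43) for Rtn4r and -0.02 (SE 0.15) for Rtn4. With sequencing set as a covariate all 6 passed.

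The 12 oligodendrocyte markers were all lower in D2 controls, with 1416 to 2220 CPM summed against 3625 to 4082 in B6 controls. Less the mean of these markers, Erbb3 was -2.21 to -1.93 in D2 controls and -2.67 to -2.30 in B6 controls, so that the ratio of Erbb3 to the markers was higher in D2. In susceptible B6 mice it was -2.33 to -2.20 and overlapped the controls. Omg less the markers was -1.24 to -1.02 in B6 controls, -0.41 to -0.14 in susceptible B6 mice and -0.42 to 0.41 in D2 controls. In these groups its level did not follow that of the markers. In resilient B6 mice Omg less the markers was -1.19 to -0.70 and overlapped the B6 controls. Of the choroid plexus and ependymal markers 7 of 7, and of the endothelial markers 6 of 6, were lower in D2 controls. Of the microglia markers 5 of 6 were lower, of the astrocyte markers 5 of 6 were lower and 1 higher, and of the prefrontal cortex markers 5 of 6 and of the interneuron markers 5 of 7 were higher. Of all genes, 59.3% were called in this comparison, and the part of these tissues in the strain differences was not tested.

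**Figure D3:**
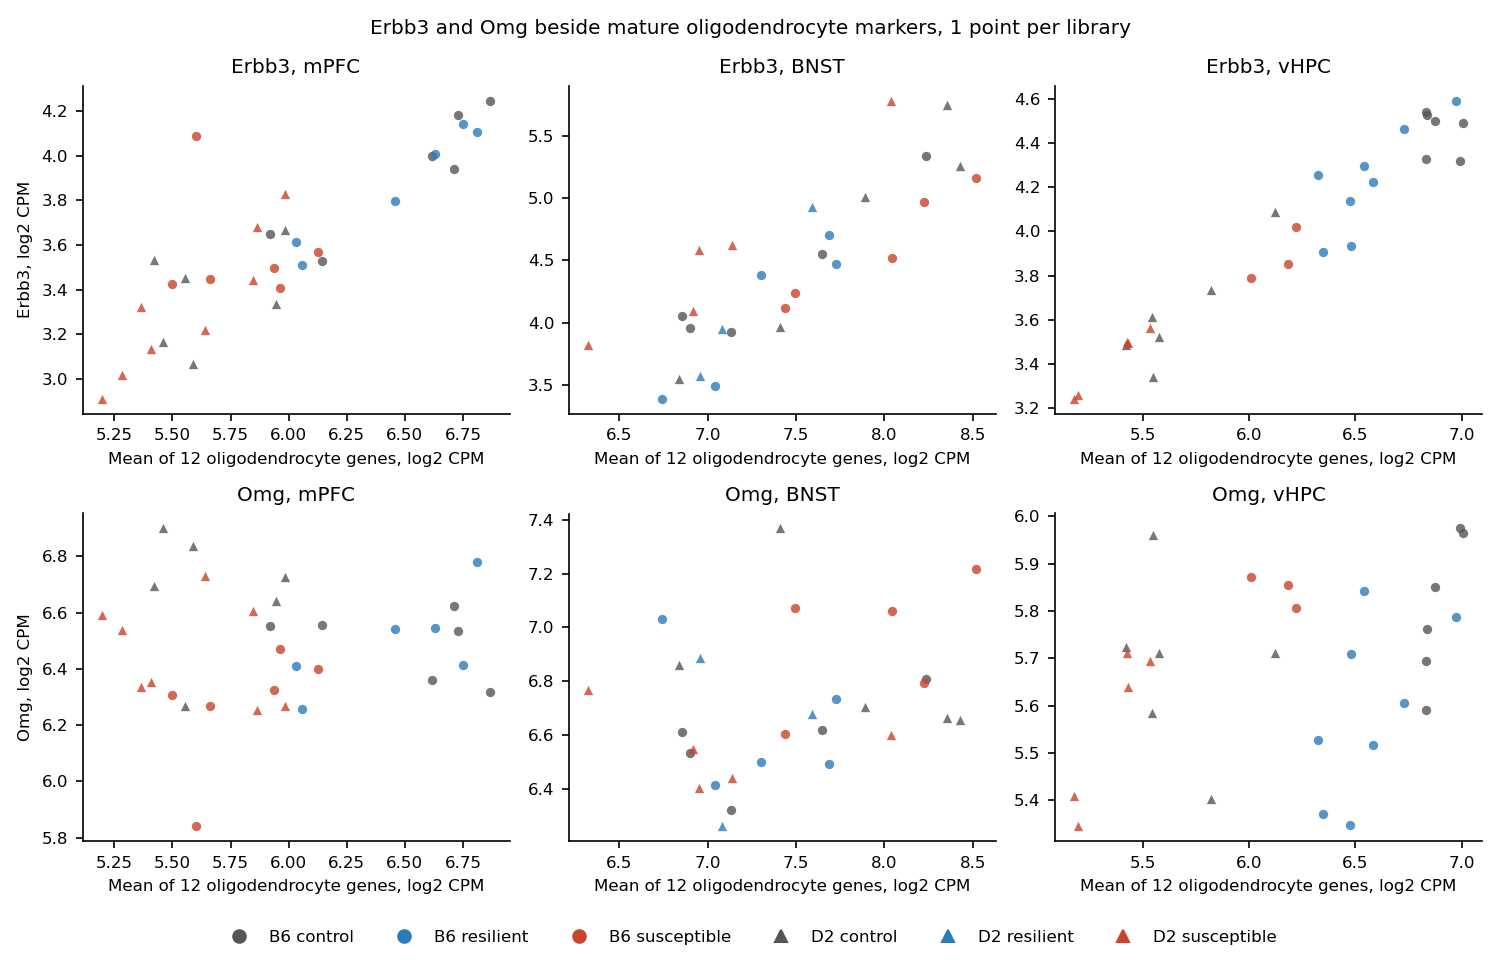
Erbb3 (top) and Omg (bottom) in log2 CPM on the y axis against the mean log2 CPM of 12 mature oligodendrocyte markers on the x axis, 1 point per library and 1 panel per region. Erbb3 rises with the markers in each region, while in the vHPC Omg lies at 5.34 to 5.97 log2 CPM over the whole range of the markers.

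The list of 21 genes that process neuregulins or carry and limit ErbB signals was measured whole in the vHPC, and 9 rose and 3 fell in susceptible B6 mice, with a median log2 fold change of 0.18, where 40.6% of all genes were called. In D2 controls 12 were higher and 3 lower, where 59.3% of all genes were called. Grb2, an adaptor protein bound to activated receptors, rose by 0.30 in susceptible B6 mice and was 0.32 higher in D2 controls. Lrig1, a membrane protein that lowers ErbB levels, rose by 0.27 and 0.29 in susceptible and resilient B6 mice, and Errfi1, an inhibitor of ErbB kinases, fell by 0.26 on the log2 scale in susceptible B6 mice. Of 6 further ErbB family ligands and receptors that were measured, 0 rose and 1 fell in susceptible B6 mice.

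Of 20 other genes of the Nogo pathway in the vHPC, 10 rose and 2 fell in susceptible B6 mice (median log2 fold change 0.25), beside the same 40.6% of all genes. Rtn4rl1, a homologue of the Nogo receptor, rose by 1.10 (SE 0.18) and was 0.88 higher in D2 controls. Lgi1, a secreted protein of neurons, rose by 0.38. Mag, a myelin protein that also binds the Nogo receptor, fell by 0.99 on the log2 scale in susceptible B6 mice, differed by -0.34 in resilient B6 and by -0.37 in susceptible D2 mice, and differed by -1.49 between D2 and B6 controls. In D2 controls 10 of the 20 were higher and 4 lower, beside the same 59.3%.

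In the mPFC, none of the 10 genes passed in a stress comparison by limma. In susceptible B6 mice 2.22% of all genes were called, and 4 of the 10 genes and 18.2% of all genes had an unadjusted p under 0.05. The closest was Rtn4, at 9.39 to 9.54 (median 9.50) log2 CPM in 6 susceptible mice and 9.52 to 9.70 (median 9.66) in 6 controls, and the ranges overlapped. Its log2 difference was -0.16 (SE 0.05, adjusted p = 0.0574), and it was called when genes with a low mean level were left out of the test (adjusted p = 0.0484). Rtn4r differed by 0.33 (SE 0.14, adjusted p = 0.196), Erbb3 by -0.35 (SE 0.16, adjusted p = 0.219) and Omg by -0.22 (SE 0.11, adjusted p = 0.266). The groups overlapped in each of these.

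Rtn4 was also called without control B6 replicate 2 (-0.18, adjusted p = 0.0369) or susceptible B6 replicate 1 (-0.17, adjusted p = 0.0479). Those fits called 491 and 532 of all genes, against 420 with every mouse. Without susceptible B6 replicate 4, which read 3.62 for Rtn4r where the other 5 read 4.38 to 4.63, Rtn4r was called with a log2 difference of 0.48 (adjusted p = 0.0311). That fit called 713 of all genes. Adding library set to the fit called 0 of the genes described here and 39 of all genes, against 420 without it. Of the genes described here, 2 then had an unadjusted p under 0.05. Adding the mouse ID prefix instead called 0 of all genes, and 0 of the genes described here had an unadjusted p under 0.05. Most B6 controls had other prefixes than the susceptible B6 mice, so prefix and stress are hard to tell apart here. Oligodendrocyte markers were lower in the same comparison, 9 of 12 at a summed 1306 to 2009 CPM against 1797 to 3445 in controls.

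Other mPFC stress comparisons called none of the 10. In resilient B6 mice 0% of all genes and 0 of the 10 were called, with Erbb2 alone of the 10, and 3.86% of all genes, under an unadjusted p of 0.05 (-0.35, SE 0.16). In susceptible D2 mice 0% of all genes were called, with Omg alone of the 10, and 3.87% of all genes, under an unadjusted p of 0.05 (-0.22, SE 0.10). Between susceptible and resilient B6 mice 2.02% of all genes were called and 0 of the 10, 3 with an unadjusted p under 0.05 (19.6% of all genes), and Erbb2 differed by 0.39 (SE 0.16, adjusted p = 0.182). For the interaction 0% of all genes and 0 of the 10 were called, and 0 of the 10 but 9.32% of all genes had an unadjusted p under 0.05.

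Between control mice of the strains, 2 of the 10 genes differed in the mPFC, beside 27.8% of all genes. Erbb3 was lower in D2, at 3.07 to 3.67 (median 3.39) against 3.53 to 4.24 (median 3.97) in B6 controls, by a log2 difference of -0.55 (SE 0.16, adjusted p = 0.0079). Rtn4r was higher, at 4.18 to 4.78 (median 4.39) against 3.72 to 4.39 (median 3.90), by 0.44 (SE 0.14, adjusted p = 0.0179). Both ranges overlapped, and without control D2 replicate 5 Rtn4r was no longer called (0.38, adjusted p = 0.0561). Without control D2 replicate 4 Omg was called as well (0.27, adjusted p = 0.0478). With library set as a covariate both passed, with adjusted p of 0.0175 for Erbb3 and 0.0292 for Rtn4r. All 12 oligodendrocyte markers were lower in D2 controls and 11 passed, with 1207 to 1752 CPM summed against 1797 to 3445, and Erbb3 less their mean was -2.61 to -1.89 in D2 and -2.77 to -2.27 in B6 controls.

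In the mPFC the related genes were called mainly between strains, as were all genes, with 27.8% called between strains and 2.22% in susceptible B6 mice. Of the 21 genes that process neuregulins or carry and limit ErbB signals, 2 were higher and 2 lower between strains. Among them were Adam19, a protease, at 0.43, Grb7, an adaptor, at 0.91 and Gab1, an adaptor, at -0.39. Nrg4, a ligand of ErbB4, was lower in D2 controls by a log2 difference of -2.32, Tgfa, an EGF receptor ligand, by -0.67 and Hbegf, an EGF receptor and ErbB4 ligand, by -0.55. Of 18 Nogo pathway genes, 5 were higher and 1, Mag, lower in D2 controls (-0.90), and Mag alone was called in susceptible B6 mice (-0.82). Rtn3, a relative of Nogo, was 0.30 higher and Rhoa, a GTPase downstream of the Nogo receptor, 0.25 higher in D2 controls.

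**Figure D4:**
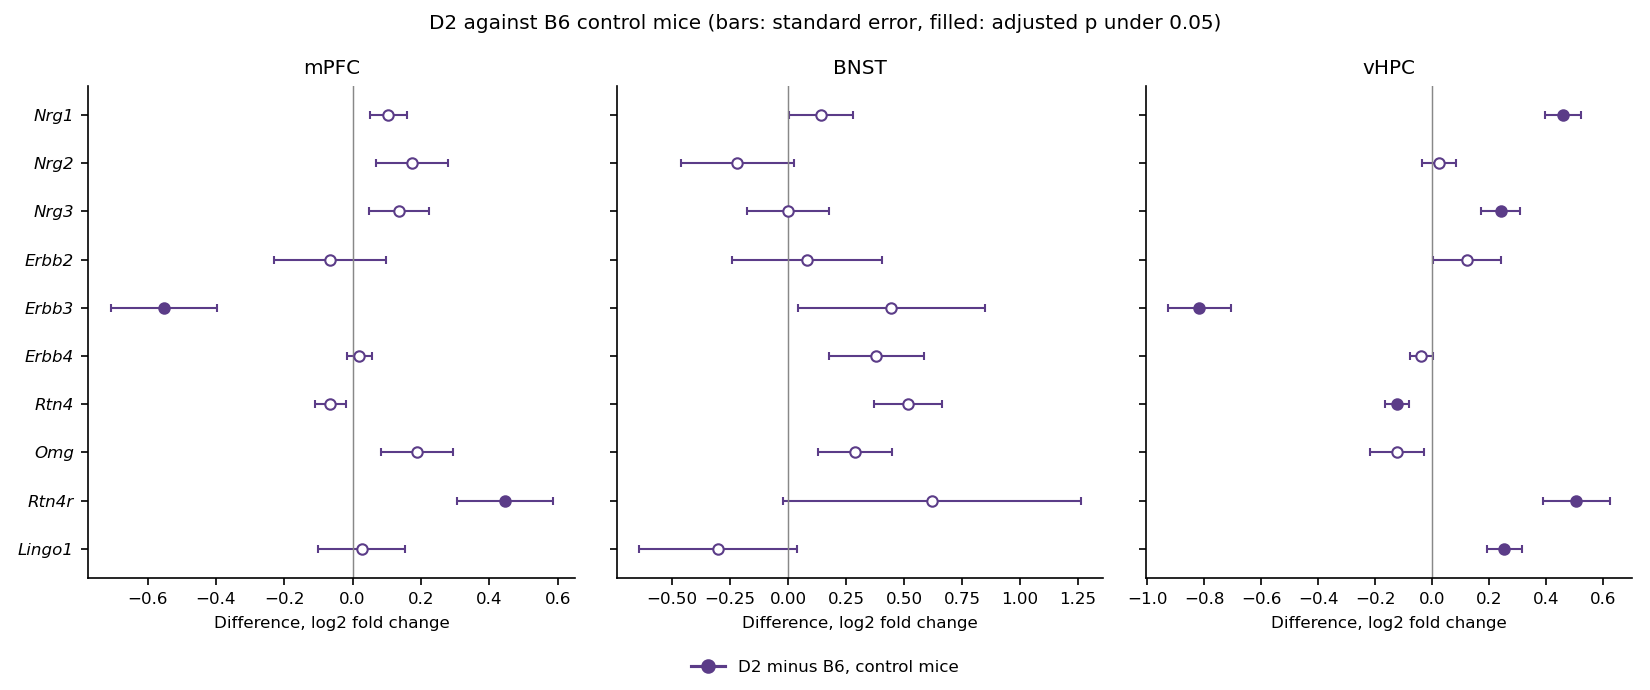
Log2 difference between D2 and B6 control mice (x axis, bars show the SE) for each of the 10 genes (y axis) in the mPFC, BNST and vHPC, filled where the adjusted p was under 0.05. Erbb3 and Rtn4r are filled in the mPFC, 6 genes are filled in the vHPC and 0 in the BNST.

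In the BNST, none of the 10 genes was called by edgeR in any of 9 comparisons. In susceptible B6 mice against controls 0% of all genes were called, and in resilient B6 mice 0%. No gene (0%) was called in either D2 stress comparison. Between susceptible and resilient B6 mice 0.00571% and between susceptible and resilient D2 mice 0% were called, while 2.51% were called between control D2 and B6 mice. For the interactions, 0% were called in susceptible and 0% in resilient mice. Unadjusted p under 0.05 was counted among the 10 genes, with the share of all genes under that p in brackets. Against controls there were 2 in susceptible B6 mice (6.37%), 2 in resilient B6 mice (1.87%), 1 in susceptible D2 mice (6.03%) and 1 in resilient D2 mice (5.44%). Between susceptible and resilient mice there were 3 in B6 (7.55%) and 0 in D2 (1.31%). Between strains there was 1 (13.4%), in the susceptible interaction 2 (11.4%) and in the resilient one 3 (3.36%). DESeq2 called Rtn4 between strains (0.54, adjusted p = 0.016), where it called 660 of all genes. It also called Rtn4 in the susceptible interaction (-0.93, adjusted p = 0.0056), where it called 223 of all genes. DESeq2 called none of the 10 elsewhere, and limma on voom values called none of the 10 in the 9 comparisons.

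Rtn4 showed the pattern with the lowest p values. It measured 8.13, 8.36, 8.43, 8.20 and 8.56 log2 CPM in the B6 controls and 8.71, 8.68, 8.54, 8.85 and 8.76 in the susceptible B6 mice, which overlapped. The log2 difference was 0.37 (SE 0.15, adjusted p = 0.709). The D2 controls measured 8.47, 9.46, 8.63, 8.84 and 8.67, the 3 resilient D2 mice 8.37, 8.17 and 8.46, and the 5 susceptible D2 mice 8.40, 8.25, 8.27, 8.18 and 8.50.

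Against D2 controls Rtn4 differed by -0.52 (SE 0.17, adjusted p = 0.858) in resilient mice, whose values all lay under the controls, and by -0.54 (SE 0.15, adjusted p = 0.537) in susceptible mice, which overlapped. The interaction in susceptible mice was -0.91 (SE 0.21, adjusted p = 0.0711), and the strain difference in controls 0.52 (SE 0.15, adjusted p = 0.0552). Leaving out control B6 replicate 5, control D2 replicate 1 or control D2 replicate 3 gave a called strain difference of 0.58, 0.60 or 0.57 (adjusted p of 0.0434, 0.0184 and 0.0474). Those fits called 430, 558 and 377 of all genes, against 439 with every mouse. Leaving out control D2 replicate 5 gave a called interaction of -0.95 (adjusted p = 0.0422), with 64 of all genes called. The interaction was also called when the prefix of the mouse ID entered the fit (-0.95, adjusted p = 0.0434), with 80 of all genes called. Control D2 replicate 2 read highest, at 9.46. A fit without it and susceptible B6 replicate 3 was chosen after seeing the data. There the Rtn4 difference in susceptible B6 mice was 0.41 (SE 0.11, adjusted p = 0.0447), called, with 479 of all genes. The interaction was -0.75 (adjusted p = 0.0329), called, with 160 of all genes. With every library in the fit, 0 of all genes were called in either comparison. In the fit without the libraries, Rtn4 differed by -0.34 (adjusted p = 0.191) in susceptible D2 mice and by 0.32 (adjusted p = 0.124) between strains. Without TMM factors, where the median of all genes moved by up to 0.53 on the log2 scale, the Rtn4 difference was 0.12 for susceptible B6 and -0.20 for susceptible D2 mice.

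Omg moved with Rtn4 in the BNST, with 6.61, 6.53, 6.62, 6.32 and 6.81 in B6 controls and 6.79, 7.07, 6.60, 7.22 and 7.06 in susceptible B6 mice (log2 difference 0.38, SE 0.16, adjusted p = 0.719). Its interaction was -0.70 (SE 0.22, adjusted p = 0.188). Summed oligodendrocyte markers were 5833 to 12120 CPM in susceptible B6 mice and 2962 to 8435 in B6 controls, 0 of 12 called, and their part was not tested.

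Rtn4r, Lingo1 and Nrg3 were spread widely among resilient B6 mice in the BNST. Rtn4r measured 1.26, 3.67, 5.44, 2.99 and 5.54 log2 CPM in the 5 resilient mice, 2.41, 3.25, 3.42, 2.2 and 2.8 in controls and 1.8, 0.25, 2.12, 3.14 and 1.8 in susceptible mice. The log2 difference between susceptible and resilient mice was -2.40 (SE 0.68, adjusted p = 0.334) and the groups overlapped. Lingo1 differed by -0.95 (SE 0.34, adjusted p = 0.498) and Nrg3 by -0.62 (SE 0.18, adjusted p = 0.336) in the same comparison.

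Excitatory neuron markers were also spread widely among the resilient B6 mice. The 6 markers summed to 872 CPM in resilient B6 replicate 3 and 717 in replicate 5, the mice with the highest Rtn4r, to 271 in replicate 2 and to 20.4 and 25.4 in replicates 1 and 4, against 16.9 to 47.7 in susceptible B6 mice and 32.4 to 186 in B6 controls. Control D2 replicate 5 summed to 302 CPM, with Rtn4r at 4.87 and Nrg3 at 6.06. Susceptible D2 replicate 1 summed to 300 CPM, with Rtn4r at 3.84 and Nrg3 at 6.03. None of the 6 markers was called, and their part in the values of Rtn4r, Lingo1 and Nrg3 was not tested. A fit without the 2 libraries of the highest share of counts in 1 gene was chosen after seeing the data. In it all 3 genes were called between susceptible and resilient mice, Rtn4r at -2.39 (adjusted p = 0.0418), Lingo1 at -1.32 (adjusted p = 0.0062) and Nrg3 at -0.72 (adjusted p = 0.0193). That fit called 1266 of all genes, against 1 with every library.

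**Figure D5:**
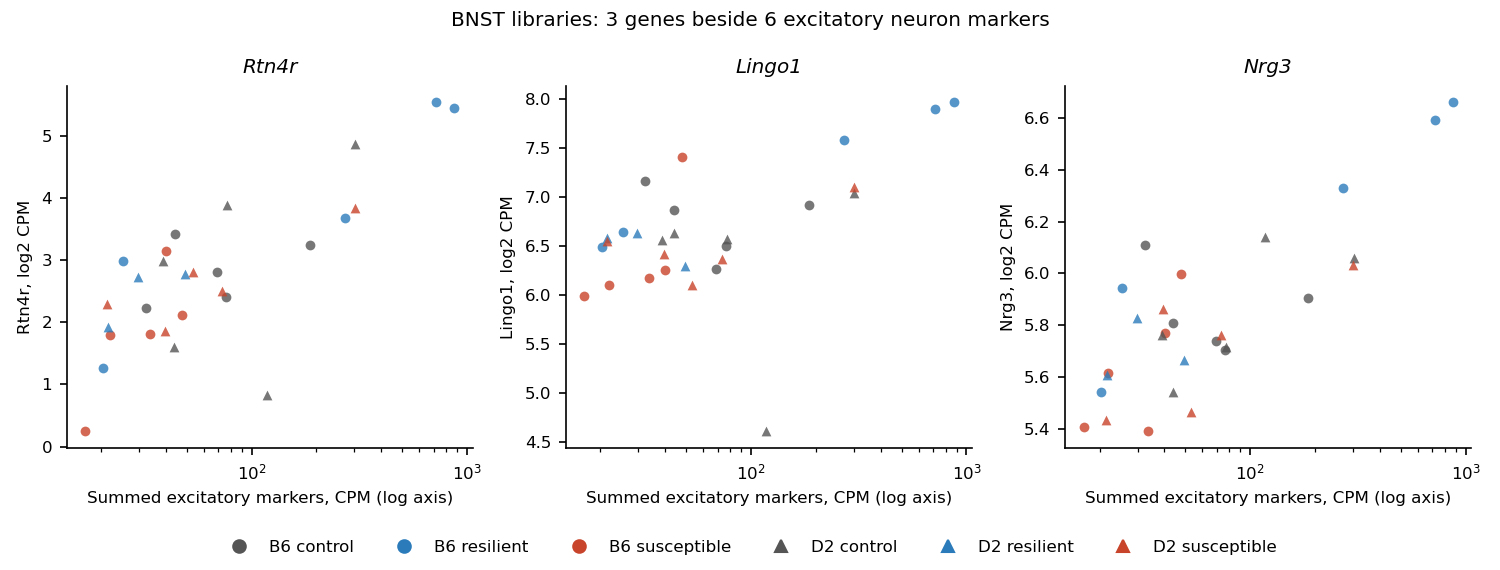
Log2 CPM of Rtn4r, Lingo1 and Nrg3 in each BNST library (y axis) against the summed CPM of 6 excitatory neuron markers on a log axis (x axis), coloured by group. The 3 resilient B6 mice with the highest marker sums of their group, 271 to 872 CPM, have the highest Nrg3 of the BNST libraries and Rtn4r of 3.67 to 5.54. Control D2 replicate 5 and susceptible D2 replicate 1 have sums of 302 and 300 CPM with lower Nrg3, at 6.06 and 6.03.

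For the other 5 genes (Nrg1, Nrg2, Erbb2, Erbb3 and Erbb4) 0 of the 9 BNST comparisons gave an unadjusted p under 0.05. Erbb4 measured 6.41 to 7.07 in susceptible B6 mice and 6.61 to 7.36 in B6 controls, and 8.22 in control D2 replicate 2, above the 7.34 of the next D2 control. Nrg1 differed by 0.14 (SE 0.14) and Nrg2 by -0.01 (SE 0.24) in susceptible B6 mice, and Erbb3 by 0.18 (SE 0.40). Of the related genes, 1 processing gene, Erbin, which binds ErbB2, was called and higher in D2 controls (0.81), and Nrg4 was lower, with 23, 22, 13, 15 and 36 counts in B6 controls and 0, 0, 4, 1 and 1 in D2 controls (edgeR adjusted p = 0.0003). Of 20 tested Nogo pathway genes 0 were called in the BNST comparisons. The edgeR fit called 0 of the 12 oligodendrocyte markers in each comparison there.

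Genes whose values resembled those of the 10 were looked for across the libraries of a region after the group means were removed, by Pearson r, as a description only, since the libraries share depth and tissue makeup. Erbb3 was most like Mog, Dock5 and Ndrg1 in the BNST (r = 0.97 each, 28 libraries), Mbp, Cntn2 and Hapln2 in the vHPC (r = 0.91, 0.85 and 0.84, 28 libraries) and Plin3, Tmcc3 and Litaf in the mPFC (r = 0.91, 0.91 and 0.90, 32 libraries). For mPFC, BNST and vHPC in turn, Omg was most like Lmbrd1 (0.92), Gpd2 (0.87) and 5930420M18Rik (0.89), Rtn4 was most like Tm9sf3 (0.77), Cdc42 (0.88) and Ppm1l (0.87), Nrg1 was most like Epm2aip1 (0.79), Msrb2 (0.74) and Marcks (0.85), and Erbb4 was most like Mef2a (0.80), Phospho2 (0.91) and Sdr39u1 (0.84). Among the 10 genes, Rtn4r and Lingo1 gave r = 0.84 in the mPFC and 0.68 in the BNST, Nrg3 and Rtn4r 0.75 in the mPFC and 0.73 in the vHPC, and Rtn4 and Omg 0.77 in the BNST.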

How the data were processed

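RNA-seq tables of the mPFC, BNST and vHPC were analysed separately. Libraries were made with Ribo-Zero and ScriptSeq v2 (mPFC), Ribo-Zero and Nextera (vHPC), or InDA-C and Ovation (BNST). Before deposit the authors trimmed adapters, removed duplicate reads with PRINSEQ, aligned the rest to GRCm38 using STAR and counted exonic reads by HTSeq (Ensembl release 86). For the BNST the authors deposited raw read counts per gene. For the mPFC and vHPC the authors deposited filtered, normalized log2 CPM values, adjusted with ComBat for library sets and, in the vHPC, for sequencing sets, so depth is unknown there and the adjustment may have removed or added group differences.

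Groups followed the strain and CSDS phenotype in the labels, each library came from 1 mouse, and replicates were numbered in accession order. The mPFC and vHPC tables share 7 mice. BNST genes with a CPM of 1 or more in at least 6 libraries were tested by edgeR 4.0.16 (quasi-likelihood test, TMM factors, log2 CPM with a prior count of 0.5), with DESeq2 1.42.0 and limma on voom values as alternatives. Log2 CPM of the mPFC and vHPC were tested by limma 3.58.1 with robust empirical Bayes moderation over all groups of a region. P-values were two-sided and adjusted by Benjamini-Hochberg over all genes tested in a region, with a threshold of 0.05, in R 4.3.3. The fits were tested on simulated data. Summaries used Python 3.11.15 and pandas 2.3.3.

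The 10 genes were described in every comparison. Of each other list, counts were given with at most 3 genes of smallest adjusted p per region, and the 3 most correlated genes were looked up for Erbb3, Erbb4, Omg, Nrg1 and Rtn4. The 10 genes and the lists were chosen with earlier results of these data known. Symbols came from GENCODE M21 and matched 99.56% (mPFC), 99.65% (BNST) and 99.61% (vHPC) of identifiers. Alternatives were another normalization, another filter, other covariates (library set, sequencing set, mouse ID prefix), only the groups compared, and each mouse left out in turn. Library sets were read from the study's supplementary sample table. The fits with both BNST libraries of highest top gene share left out, and with vHPC sequencing set 1 alone, were chosen after seeing the data.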

Additional observations from a re-analysis of the deposited data

Results flagged for a closer look

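Within groups of 4 to 10 mice, 1 mouse stood far from the others (Dixon's test) in 11 of 140 groups of values, where chance alone gives about 1 in 20. In the mPFC, susceptible B6 replicate 4 stood apart for Erbb3 (4.09 log2 CPM, the others 3.41 to 3.57), Omg (5.84, the others 6.27 to 6.47) and Rtn4r (3.62, the others 4.38 to 4.63). Control B6 replicate 2 had the highest Nrg3 (6.57, the others 6.26 to 6.37), and control D2 replicate 4 the lowest Rtn4 (9.42, the others 9.58 to 9.64).

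In the BNST, the libraries concerned were those in which 1 gene took the largest share of counts. Control D2 replicate 2 read -0.91 log2 CPM for Erbb2 (the others 1.5 to 1.96), 7.37 for Omg (the others 6.66 to 6.86) and 4.6 for Lingo1 (the others 6.56 to 7.04). Susceptible B6 replicate 3 read 6.41 for Erbb4 (the others 6.95 to 7.07) and 7.41 for Lingo1 (the others 5.99 to 6.25). In the vHPC, susceptible D2 replicate 5 had the lowest Lingo1 (7.48, the others 7.56 to 7.59).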

How the results depend on the processing

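None of the 17 called differences changed sign under an alternative, though no alternative separates library set from stress between control and defeated B6 mice in the vHPC. In the vHPC, library set as a covariate left 0 of the 5 genes called against controls, 0 of the 4 between susceptible and resilient B6 mice and 0 of the 6 between strains. Over all genes these fits called 202, 0 and 1643, against 7949, 5404 and 11603 without the covariate, and only the strain differences of Rtn4r (0.51 to 0.32) and Rtn4 (-0.12 to -0.02) and the stress difference of Rtn4r (0.63 to 0.54) were smaller by over 0.01 on the log2 scale. Between susceptible and resilient B6 mice, 1 gene was called with only the groups compared and 0 with sequencing set 1 alone. For the vHPC interaction, where 0 genes were called, 1 was called after quantile normalization and 2 with only the groups compared. In the mPFC, the 0 genes called against controls became 1 with a filter on mean log2 CPM and 0 to 1 with a mouse left out, and the 2 called between strains became 1 to 3 with a mouse left out. In the BNST, where edgeR called 0, leaving out both libraries of highest top gene share gave 1 gene against controls, 3 between susceptible and resilient B6 mice and 1 in the interactions. DESeq2 gave 1 between strains and 1 in the interactions, and leaving out a mouse gave 0 to 1 in each of these.

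Of the 17 called differences, 17 stayed called without robust moderation, with a filter on mean log2 CPM and after quantile normalization, 2 with library set as a covariate and 14 with only the groups compared. With sequencing set as a covariate all 15 in the vHPC stayed called, as did all 9 that could be fitted with the mouse ID prefix, which cannot be fitted beside strain. With sequencing set 1 alone 11 stayed called. In 183 of 185 fits with a mouse left out the call stayed. In B6 controls, ranks of the level per kb by longest transcript were the same for 10 (mPFC), 6 (BNST) and 8 (vHPC) genes. Nrg1 and Nrg2 changed places there in the BNST and vHPC, and Erbb4 and Nrg3 in the BNST. In D2 controls the changes differed, and in the mPFC Omg changed places with Lingo1 and Erbb4 with Nrg3. No paired analysis was possible because the groups hold different mice and replicate numbers only follow accession order. Depth limits Erbb2 and Rtn4r in the BNST, and is unknown for the mPFC and vHPC.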
